A study of Homo sapiens with 2 samples.

Results

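The 1779 probes described here read long intergenic noncoding RNAs, genes whose official symbol is LINC followed by digits. They were chosen among the 58201 non-control probes of an Agilent human expression array as those annotated with a curated noncoding RefSeq accession that belongs to such a gene in the RefSeq gene table. The rule itself uses no measured value. The probes read 1126 genes through 1195 accessions, while the table holds 2304 LINC genes in all. Of the 1126 genes 653 had 1 probe, 334 had 2 and 139 had 3 or more, with at most 6 for a gene, so that probes of the same gene are not independent of each other. Each of the probes was printed once per array, and 0 of them were saturated.

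The RNA came from H9, an established line of human embryonic stem cells that the study kept undifferentiated in TeSR-E8 medium. The study grew H9 on vitronectin and moved cells of passage 35 to Matrigel. The sample labels used here do not give the matrix of either sample. The substate 1 cells were at passage 35 and the substate 2 cells at passage 50, and the study told these substates apart by the shape of their colonies and by staining for the R-10G epitope and for vimentin. Each substate had 1 array, and one slide, read in a single scan, held the pair. Substate therefore cannot be told apart from passage, or from the matrix and the time on it where these differed. No difference has a replicate check, no test between the substates was possible, and all values below compare these 2 arrays.

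Long intergenic noncoding RNAs are transcribed by RNA polymerase II between protein-coding genes, are commonly spliced and carry no long open reading frame. They are as a class less abundant and more restricted to particular cell types than messenger RNAs. Several are known from human pluripotent cells, others from neural or endodermal lineages, and a LINC symbol is given to genes that have no name for a function. Some act on nearby genes and others elsewhere in the cell, and for most no role is known.

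The sequences of the probes were not used here, and the start regions of their genes are shown in their place, for the genes on which the results below turn. Of the 1126 genes 796 had an entry in the RefSeq promoter table (GRCh38.p14), which gives 300 bases, 250 before and 50 after the start. LINC02126 (chr16:65176524-65176823, minus strand) and LINC00877 (chr3:72100406-72100705, minus strand) held the pair of probes with the largest falls, LINC01936 (chr2:30346396-30346695, plus strand) the probe with the largest rise, and LINC02995 (chr5:173579384-173579683, plus strand) the probe with the largest bound. LINC01234 (chr12:113773634-113773933, minus strand) had 3 probes that were all higher in substate 2, and LINC00685 (chrX:318895-319194, plus strand) stands for a start region dense in CG dinucleotides. All are written 5′ to 3′ on the strand of the gene, and the capitals mark each CG dinucleotide.
LINC02126: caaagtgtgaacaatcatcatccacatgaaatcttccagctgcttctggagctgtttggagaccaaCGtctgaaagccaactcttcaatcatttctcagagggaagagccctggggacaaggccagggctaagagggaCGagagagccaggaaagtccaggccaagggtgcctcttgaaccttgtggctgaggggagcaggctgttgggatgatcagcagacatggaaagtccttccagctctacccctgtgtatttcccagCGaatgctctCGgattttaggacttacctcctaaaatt
LINC00877: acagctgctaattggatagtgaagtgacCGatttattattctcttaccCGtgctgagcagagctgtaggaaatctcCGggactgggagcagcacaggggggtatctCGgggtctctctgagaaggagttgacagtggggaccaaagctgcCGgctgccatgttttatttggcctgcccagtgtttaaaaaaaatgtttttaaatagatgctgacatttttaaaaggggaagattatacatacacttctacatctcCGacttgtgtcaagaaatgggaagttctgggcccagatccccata
LINC01936: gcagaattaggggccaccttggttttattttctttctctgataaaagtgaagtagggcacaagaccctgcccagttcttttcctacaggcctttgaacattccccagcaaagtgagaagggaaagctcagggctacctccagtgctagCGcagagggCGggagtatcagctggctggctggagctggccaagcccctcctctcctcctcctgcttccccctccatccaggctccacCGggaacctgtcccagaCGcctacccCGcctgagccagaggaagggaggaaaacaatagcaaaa
LINC02995: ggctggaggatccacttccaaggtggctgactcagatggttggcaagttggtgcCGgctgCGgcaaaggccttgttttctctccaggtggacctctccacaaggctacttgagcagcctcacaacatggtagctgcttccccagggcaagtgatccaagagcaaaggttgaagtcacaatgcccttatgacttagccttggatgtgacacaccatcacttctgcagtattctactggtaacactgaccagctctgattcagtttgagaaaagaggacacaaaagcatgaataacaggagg
LINC01234: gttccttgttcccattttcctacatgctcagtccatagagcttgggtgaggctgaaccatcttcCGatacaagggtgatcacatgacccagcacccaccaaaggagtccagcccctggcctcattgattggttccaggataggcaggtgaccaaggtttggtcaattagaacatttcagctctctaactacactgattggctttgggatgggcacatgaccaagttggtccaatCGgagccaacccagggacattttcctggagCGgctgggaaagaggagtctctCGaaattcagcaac
LINC00685: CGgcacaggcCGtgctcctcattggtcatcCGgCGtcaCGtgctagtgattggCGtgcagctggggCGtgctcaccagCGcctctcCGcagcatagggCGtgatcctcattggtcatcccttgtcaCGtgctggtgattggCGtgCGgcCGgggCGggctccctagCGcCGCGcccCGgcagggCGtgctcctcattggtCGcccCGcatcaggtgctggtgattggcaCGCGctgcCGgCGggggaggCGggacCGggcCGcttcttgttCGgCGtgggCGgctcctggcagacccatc
The CG counts of these windows were 4 for LINC02126, 6 for LINC00877, 5 for LINC01936, 2 for LINC02995, 4 for LINC01234 and 32 for LINC00685. The dinucleotide CG reads the same on both strands. Over 27305 genes of the table, with the first entry of each, 56.0% of the windows held 10 or more CG dinucleotides.

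The labelled cell type was checked against its markers. POU5F1, NANOG, SOX2 and LIN28A, transcription factors and an RNA-binding protein of pluripotent cells, were detected on both arrays, and their log2 differences, substate 2 minus substate 1, were 0.27, 0.42, 0.26 and 0.18. VIM, which encodes vimentin, was 5.76-fold higher on the substate 2 array, and CDH1, which encodes the epithelial cadherin, was 2.78-fold lower. The 75th percentile of the probe signals, by which each array was scaled, was 313.7 for substate 1 and 275.4 for substate 2.

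By the detection limit used here, most LINC probes were near background. A probe counts as detected where the scanner software marked it as well above background, which began at a signal of 14.5 in substate 1 and of 15.03 in substate 2. Of the 1779 LINC probes 425 (23.9%) were detected on both arrays, 77 (4.33%) in substate 1 only, 39 (2.19%) in substate 2 only, and 1238 (69.6%) on neither. Over all 58201 non-control probes the same shares were 51.3%, 4.22%, 1.42% and 43.0%. Among the 25277 messenger RNA probes of RefSeq 75.1% were detected on both arrays and 20.8% on neither. The 4714 other noncoding RefSeq probes lay between these classes, with 47.7% detected on both arrays and 45.8% on neither. With the lower limit of signals significantly above background, 782 LINC probes were detected on both arrays and 611 on neither. For the 1238 LINC probes near background on both arrays no fold change is given.

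More LINC probes were detected in substate 1 (502) than in substate 2 (464). Of the 116 LINC probes detected on 1 array 66.4% were those of substate 1, whereas among all probes of the arrays the same share was 74.8%. By gene, 325 of the 1126 had a probe detected on both arrays, 82 had a probe detected on 1 array and none on both, and 719 had none. Probes of the same gene were not always of the same class. Of the 473 LINC genes with 2 or more probes, 49 had all of them on both arrays, 251 had none on either, and 110 had some on both and some on neither.

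The share of start regions dense in CG was higher in the detected LINC genes. At least 10 CG dinucleotides stood in the window of 41.9% of the 227 matched genes with a probe detected on both arrays, of 26.7% of the 60 matched genes with a probe on 1 array only, and of 18.9% of the 509 matched genes with none. The median number was 7 in the first of these classes, 4 in the second and 3 in the last, beside 14 over all genes of the table. Nothing was tested here, and the classes share the same arrays.

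Among the 425 LINC probes detected on both arrays the values of the substates lay close together. Their median log2 difference was -0.07, with quartiles of -0.32 and 0.22, an SD over probes of 0.41 and a range from -1.63 to 1.55. In 251 of them (59.1%) the substate 2 array was lower. The 29883 probes of all kinds that were detected on both arrays had a median difference of 0.06 and an SD of 0.40, and 44.0% of them were lower in substate 2. The LINC median less that of all probes was -0.13, and between -0.13 and -0.06 under the other scalings and background correction tried. The probes of messenger RNA had a median of 0.09 and those of other noncoding RNA one of -0.03.

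The distance from the messenger RNA probes was seen at each level of signal. Of the LINC probes 201 had a mean scaled log2 signal below -2, and their median difference was -0.07, against -0.0021 for messenger RNA probes of that range. The 121 LINC probes between -2 and 0 had a median of -0.06, against 0.03, and the 103 LINC probes at 0 or higher one of -0.09, against 0.13. The medians of all probes in these ranges were -0.02, -0.01 and 0.12. The LINC median was therefore closer to that of all probes at signals below 0 than at higher ones. The LINC medians lay at similar values in these ranges, while those of the messenger RNA probes were higher at high signal. The error that the scanner software gives for the spots amounts to an SD of 0.20 to 0.43 for the difference of a single LINC probe, with a median of 0.22 over probes, and covers the array and not the cells. After background correction by normexp the LINC median was 0.0079, on the other side of 0.

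Differences of 2-fold or more were few. In substate 2 there were 2 LINC probes that rose by 2-fold or more (0.471%), where 0.85% of all probes detected on both arrays did, and 9 that fell (2.12%), where 1.26% of all probes did. These shares are counts over 2 arrays without a test, and 80.0% of the LINC probes differed by less than 0.5 on the log2 scale, beside 84.0% of all probes. The counts depend on the detection limit, and with a lower one, signals significantly above background, 52 LINC probes rose and 33 fell, so that rises outnumbered falls. Above the highest negative control spot 5 rose and 6 fell. After normexp correction 0 of the 425 probes passed the limit upwards and 1, that of LINC00685, downwards. The shares of all probes in these other settings are not given here, so these counts cannot be set against them.

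The probe of LINC01936 had the largest rise. Its signal was 14.95 in substate 1 and 38.3 in substate 2, a log2 difference of 1.55 with an error of 0.37, or 2.92-fold. The substate 1 signal was near the lower end of detection. LBH, the gene before it, a regulator of transcription known from WNT responses, differed by 0.46 over 3 probes, and LCLAT1 after it, an enzyme of phospholipid remodelling, by -0.06. The probe of LINC03027 gave 40.0 and 92.3, a difference of 1.40 with an error of 0.25. Both genes have a single probe, so that no other spot bears on their values.

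LINC02126 had the largest fall. Its signals of 73.5 in substate 1 and 20.9 in substate 2 gave a difference of -1.63 with an error of 0.35, or 3.09-fold. The other probe of the gene was detected on the substate 1 array only, with 18.0 against 5.82, which bounds it to at least 1.05-fold lower. Its neighbours are cadherin genes, CDH11 of mesenchymal cells and CDH5 of endothelium, and had differences of the opposite sign, 0.70 and 0.32. One of the 3 probes of LINC00877 fell from 93.8 to 29.6, by 1.48 on the log2 scale with an error of 0.26, and the other probes of this gene were detected on neither array. PROK2 and RYBP beside it differed by -0.13 and 0.11.

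LINC00513 and LINC01176, both on chromosome 7, fell by similar amounts. The probe of LINC00513 had signals of 190.1 and 72.7 and a difference of -1.20, and its other probe was near background on both arrays. The single probe of LINC01176 had signals of 40.7 and 15.6 and a difference of -1.19 with an error of 0.36. Of the genes next to them, MKLN1 beside LINC00513 differed by 0.08, ZNRF2 before LINC01176 by -0.32 and NOD1 after it, a sensor of bacterial cell walls, by 0.08.

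The other 5 probes that fell lay just past the limit, and with the arrays centred on their medians they were all inside it, which left 4 falls. LINC00685, in the pseudoautosomal region of the X chromosome, gave 1032.6 in substate 1 and 449.0 in substate 2, a difference of -1.01, while GTPBP6 and PPP2R3B on its sides differed by 0.22 and 0.18. LINC00618 gave 461.7 and 200.4 (-1.02). VRK1 before it differed by 0.15 and BCL11B after it, a zinc finger transcription factor, by -0.95. LINC02894 gave 130.2 and 56.5 (-1.02). VIRMA before it differed by 0.16 and ESRP1 after it, a splicing regulator of epithelial cells, by -0.55.

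LINC01355, with 143.4 and 62.8, and LINC00312, with 152.8 and 67.0, differed by -1.002 and -1.001. LMCD1 and SSUH2 beside LINC00312 differed by -0.23 and 0.17. HNRNPR, an RNA-binding protein gene beside LINC01355, differed by 0.31. Just inside the limit lay LINC02256 with -0.97, LINC01950 with -0.95 and LINC00955 with -0.94 on the lower side, and LINC01234 with 0.94 on the higher side. LINC02315, at 1747.4 and 895.4, differed by -0.78 and LINC01963, at 468.7 and 670.6, by 0.70, and both lay well above background. Of the 11 genes past 2-fold 9 had a start region in the table, and LINC00685 was the 1 (11.1%) with at least 10 CG dinucleotides. Among the 218 matched genes on both arrays that stayed within 2-fold, 94 (43.1%) had as many. This contrast was not tested.

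The probes detected on 1 array have a bound in place of a fold. For these the bright value was set against the lowest detected signal of the other array, or against the dim probe itself where that was higher. Where the dim probe was used, the value is the measured ratio and not a lower limit. Of the 39 LINC probes detected in substate 2 only, 12 (30.8%) were at least 2-fold higher, beside 31.4% of all such probes. Of the 77 detected in substate 1 only, 5 (6.49%) were at least 2-fold lower, beside 7.13%, and 63 of the 77 had a bound above 1-fold. The shares were near those of all probes in either direction. The counts move with the floor, to 21 higher and 22 lower with the dim side set at the negative controls, and to 2 and 0 after normexp correction. The shares of all probes in those settings are not given here.

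On the higher side, LINC02995 gave 6.64 in substate 1 and 88.1 in substate 2, at least 6.94-fold higher, although its other probe was near background on both arrays. STC2, the gene before it, which encodes a secreted glycoprotein, differed by -1.19, and BOD1 after it by 0.14. LINC02502 gave 3.29 and 73.3, at least 5.78-fold higher, and its other probe too was near background. The mitotic checkpoint gene MAD2L1 on one side of it differed by 0.30 and PDE5A on the other by -0.10.

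LINC01193 was at least 4.86-fold higher, with signals of 12.6 and 61.7, and POTEB3 beside it, of the POTE ankyrin family, differed by -0.83. LINC00851 was at least 4.83-fold higher, LINC03062 3.70-fold, LINC01923 3.69-fold, LINC01431 3.67-fold and LINC00703 3.48-fold, each as a lower bound. LINC01431 is the one of these with another probe on both arrays, which gave 36.8 and 56.0 and a difference of 0.79. Its remaining probe was detected in substate 1 only, with 18.3 and 13.0, so its 3 probes did not go one way. The other probes of LINC01193, LINC01923 and LINC00703 were near background on both arrays. LINC01547 had a probe on both arrays with a difference of 0.79 and another that was at least 3.38-fold higher.

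On the lower side, LINC02653 gave 73.1 and 6.98, at least 4.27-fold lower. Its neighbours KIF20B and HTR7, a kinesin and a serotonin receptor, differed by 0.01 and 0.33. LINC01339 was at least 2.66-fold lower, with 45.5 and 13.9, and a second probe of it, detected on both arrays, gave 47.7 and 27.2, a difference of -0.63. LINC00882 was at least 2.05-fold lower. LINC03022 was 2.27-fold and LINC02603 2.05-fold lower. Their dim signals, 17.3 and 15.9, lay above the lowest detected one, so these are measured ratios and not lower limits. The other probes of LINC02653 and LINC00882, and a further probe of LINC01339, were near background on both arrays. The start regions of LINC00882 and LINC02603 held 33 and 22 CG dinucleotides, and those of LINC02192 and LINC01205, named next, 3 and 8. The next bounds, below the limit, were 1.91-fold for LINC02192, 1.91-fold for LINC01205 and 1.71-fold for LINC01990. Those of LINC01205 and LINC01990 are measured ratios too.

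The study used a Z-score of the log fold change, which was computed here over all probes, without regard to detection, with a limit of 2. By that measure 81 LINC probes were higher (4.55%, where 3.03% of all probes were) and 71 lower (3.99%, where 3.3% were). Of these 152 probes 116 (76.3%) were near background on both arrays, 17 were detected in substate 1 only, 13 in substate 2 only, and 6 on both. The 6 were LINC01936 and LINC03027 on the higher side and LINC02126, LINC00877, LINC00513 and LINC01176 on the lower. Among the LINC probes near background on both arrays 5.33% were higher and 4.04% lower, beside 5.16% and 4.19% of all such probes. Of those detected in substate 2 alone, 33.3% were higher, beside 44.0%, and of those detected in substate 1 alone, 22.1% were lower, beside 28.1%. With normexp correction 17 LINC probes were higher and 29 lower by the same limit. The shares of all probes with that correction are not given here.

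LINC genes known from particular cell types were set out as lists. LINC00678, known from human pluripotent cells, had signals of 4293.9 in substate 1 and 2517.4 in substate 2, a difference of -0.58 or 1.497-fold, and BDNF beside it differed by -0.08. LINC00458 and LINC01108, from the same list, were near background on both arrays with all their probes. Of the pluripotent list 1 of 3 genes was therefore measured.

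Of the neural list LINC00632, from whose locus the circular RNA CDR1-AS also arises, had 3 of its 4 probes on both arrays, with differences of -0.17, -0.06 and 0.01. LINC01551, known from neural cells, was detected on neither array, and the other 2 of the 4 genes had no probe under those symbols. LINC00261, known from definitive endoderm, was detected on neither array with its 2 probes. In the list of genes known from many cultured cell lines 3 of 6 genes were detected on both arrays. LINC00467 had differences of 0.41 and 0.43, LINC00665 ones of -0.12, -0.12 and -0.17, and LINC00662 one of -0.32. LINC00473, LINC00511 and LINC00707 were near background. In these 4 lists 0 of the 10 probes detected on both arrays reached 2-fold in either direction. Of all probes detected on both arrays 0.85% rose and 1.26% fell by that much, so 0 of 10 does not set the lists apart.

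Where a LINC gene had several probes on both arrays, they give the only repeated reading of it. There were 68 such genes. In 39 of them (57.4%) the probes shared a sign, and in 47 (69.1%) they lay on the same side of the median of all probes. For messenger RNA genes the shares were 71.6% and 71.0%, and for other noncoding genes 57.2% by either measure. The median difference was -0.07 for LINC probes, 0.09 for messenger RNA probes and 0.06 for all probes. A set that lies off the dividing value shares a side more often, whatever the agreement within a gene. The shares therefore have unlike baselines and do not rank the sets by agreement. The median distance between a pair of probes of a LINC gene was 0.19 (142 pairs), beside 0.15 for messenger RNA genes and 0.20 for other noncoding genes. Differences of up to this size are within the disagreement between probes of a LINC gene.

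LINC01234 had 3 probes on both arrays. Its 3 probes gave 175.9 and 292.8, 455.5 and 553.9, and 107.9 and 181.3 in substates 1 and 2, with differences of 0.92, 0.47 and 0.94. All 3 were higher in substate 2, and none reached 2-fold. RBM19, a ribosome biogenesis gene beside it, differed by 0.01, and LHX5, a homeobox gene on its other side, was not detected on both arrays.

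LINC01347 had 6 probes on both arrays, with differences from -0.65 to -0.19, so that all were lower in substate 2. The 3 probes of LINC00265 were lower too, from -0.56 to -0.23, as were those of LINC02614, from -0.58 to -0.27, and LINC01806, from -0.50 to -0.11. On the higher side, the 3 probes of LINC00963 lay from 0.23 to 0.43, those of LINC00847 from 0.29 to 0.38, and the 3 detected probes of LINC01018 from 0.22 to 0.47. All of these are below 2-fold.

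Other genes had probes that lay far apart. The probes of LINC00649 gave -0.22 at signals of 604.3 and 454.2, and 0.90 at signals of 26.1 and 42.8, a distance of 1.13. Those of LINC01128 ran from -0.22 to 0.85 and the 4 of LINC00999 from -0.60 to 0.41. LINC00664 gave -0.82 with one probe and -0.01 with the other. The 0.85 of LINC01128 came from signals of 28.1 and 44.3 and the -0.82 of LINC00664 from 38.4 and 19.0. The probes can read different exons or transcripts of a gene, and whether a probe also binds RNA of similar genes was not tested.

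LINC genes and the protein-coding genes next to them lay on the same side about as often as on opposite sides. Over 461 pairs of a LINC gene and an adjacent protein-coding gene, both measured, 229 (49.7%) lay on the same side of the median of all probes, with a Pearson r of 0.04 across pairs. Pairs of adjacent protein-coding genes gave 53.5% and 0.10 over 21498 pairs. These are descriptions over genes read on the same 2 arrays, in which a LINC gene can stand in 2 pairs. The median difference was -0.07 for LINC genes, below the 0.06 of all probes. It was above that for the neighbours, 0.10 beside LINC genes and 0.11 in the coding pairs. The percentages for the LINC and the coding pairs therefore have unlike baselines. Single pairs went together, such as LINC01607 with 0.76 and HEY1, a Notch target, with 1.05 (MRPS28 on the other side gave 0.27), or LINC00618 with BCL11B. Others were opposed, such as LINC02126 with CDH11.

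The share of LINC probes detected on both arrays differed along the genome. It was 48.6% on the X chromosome (18 of 37 probes) and 40.0% on chromosome 19 (14 of 35), and 16.1% on chromosome 13 (19 of 118) and 14.94% on chromosome 8 (13 of 87). Detection shares of all probes by chromosome are not given here. The median difference of the LINC probes detected on both arrays was lowest on chromosome 7 (-0.26, 17 probes) and highest on chromosome 9 (0.18, 12 probes). Over the detected probes matched to any gene, the medians on chromosomes 7 and 9 were 0.08 and 0.12. Chromosome 4 was next lowest for LINC probes (-0.25, 17 probes). Probes of the same gene count separately here, and on the X chromosome LINC00630, LINC00632 and LINC01278 each gave 3 of the detected probes. The chromosomes named are the extremes, picked after the values were seen. No chromosome was tested against another.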

How the data were processed

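RNA of H9 cells, 1 sample for either substate, was hybridised as Cy3-labelled complementary RNA to single-colour arrays, 1 per substate. The authors deposited the scanner output, in which each spot has an intensity, and a table of log2 values. Per the file headers, Feature Extraction 11.5.1.1 (protocol GE1_1105_Oct12) subtracted the background and removed spatial trends, which can leave dim spots with uncertain intensity. The deposited log2 values differed from those computed here by 1 constant per array for 100% of probes (within 0.01), and their column medians were -3.57 and -3.62. The zero point of that table was not used.

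The processed intensity was floored at 1 (0 spots lay below) and put on the log2 scale. The 75th percentile over non-control probes of the array was then subtracted. Removal of spots flagged as outliers took away no LINC value, since all 1779 LINC probes kept their single spot. The LINC values were therefore not screened by this step, and whether any of their spots was flagged is not given here. Differences are substate 2 minus substate 1. The Z-score was the difference less the mean of all probes (0.07), divided by their SD (0.63). Bounds took the lowest detected signal of the dim array, or the dim probe where higher. Precision is limited by the number of arrays. The SD between spots of a replicated probe was 0.046 and 0.052, and errors given for a difference come from the software's error estimate for each spot.

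Probes were named by accession, without version, in the RefSeq table of GRCh38.p14, in which 6287 of 6493 noncoding probes matched. The array was annotated on hg19, so gene coordinates are not given beyond those of the printed start regions, and the table served for names, chromosomes and the order of genes. A further 1 LINC probe with a predicted accession was left out. The genes named were the 15 most raised and 15 most lowered probes among those on both arrays, the 8 largest bounds in each direction, the listed genes, genes with 3 or more probes on both arrays, and the adjacent coding genes of these. LINC01547's second probe and the chromosomes were named after their values were seen. The members and lists were chosen with earlier results of these data known.

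The settings tried instead were quantile normalisation, median centring, loess centring (span 0.3), normexp (offset 50, on median spot and background intensity), other detection limits and the deposited table. Python 3.11.15, R 4.3.3 and limma 3.58.1 were used, and the counting was tested on simulated data.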

Additional observations from a re-analysis of the deposited data

How the results depend on the processing

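With 1 array per substate, no array could be left out, and there were no pairs of samples to block on. With normexp the median LINC difference was 0.0079, the 2-fold counts were 0 higher and 1 lower, the Z-score counts 17 and 29, and the counts of bounds 2 and 0. Centring on the median gave 4 falls of 2-fold and 3 lower bounds, and loess centring 3 lower bounds. Of the 11 probes past 2-fold, 8 remained under quantile normalisation, 8 under loess, 6 under median centring and 1 under normexp. Under normexp the differences of LINC01936 and LINC03027 were 0.63 and 0.63. Those of LINC02126, LINC00513 and LINC01176 were -0.52, -0.67 and -0.18. With detection set at signals significantly above background, 782 LINC probes were detected on both arrays, 216 in substate 1 only, 170 in substate 2 only and 611 on neither, with 52 rises and 33 falls of 2-fold. Above the highest negative control, which was 7.29 in substate 1 and 33.5 in substate 2, 416 were detected in substate 1 only and 6 in substate 2 only, with 5 rises. Bounds against negative controls gave 21 higher and 22 lower. For none of these counts is the share of all probes in the same setting given here. Relative to the median of all probes, 69.1% of genes with several probes had them on one side, a share that also depends on where the LINC median lies. The difference between the LINC median and that of all probes, -0.13 (-0.10 by quantile, -0.09 by loess and -0.06 by normexp), was added after seeing the data. Of 116 named differences 6 changed sign under median centring, 1 under loess, 8 under normexp and 1 under quantile normalisation. These were LINC00205 (0.011 and 0.026 by median, 0.00056 by quantile), LINC00664 (0.029 by median), LINC00869 (0.028 by median, 0.0056 by normexp), LINC00240 (0.0026 by median, 0.013 by loess, 0.19 by normexp), LINC01278 (0.016 by median, 0.0051 by normexp), and by normexp LINC00630 (0.018), LINC00941 (0.075), LINC01569 (0.068), LINC01252 (0.023) and LINC02453 (0.023). The cause was not tested. A further 62 named differences under normexp, 12 under loess and 10 under quantile normalisation kept their sign but moved in size. Keeping outlier spots, scaling before the floor and the deposited table gave the same 2-fold and Z-score probes. These settings could change little and are no separate check. Each LINC probe has 1 spot, 0 signals lay under the floor, and the deposited values differ by 1 constant per array. Naming by the gene name in the scanner output was not run, since the columns used here hold none.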
